A study of Monodelphis domestica with 9 samples.

Results

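The values of condition q3 were compared with those of condition q2 in laser-captured ear tissue of the grey short-tailed opossum, *Monodelphis domestica*, a marsupial whose middle ear bones separate from the jaw after birth. The comparison covered 11419 TSS groups of 7776 genes. Transcripts of 1 gene that begin at a common start site (TSS) form a TSS group. The groups were those on chromosomes 2 to 7 with a value in both conditions and with an accepted test of q3 against q1 in the deposited table, which left out 12572 of 23991. For the whole series, 37421 TSS groups were listed for q2 against q1. Meckel's cartilage (MC) and the malleus, with little of the perichondrium around them, were cut out near their connection by laser from 3 pups at each of P16, P18 and P20, which are postnatal days 16, 18 and 20. That is the account in the paper's methods, while its results name MC with its perichondrium, just in front of the malleus. Because so little RNA was captured, it was amplified before sequencing. The deposited values carry the codes q1, q2 and q3 in place of stages, and no source used here pairs them, so an order of q2 before q3 is presumed only. Each condition has 1 mean in FPKM, a fragment count scaled by transcript length and library size, with no value or error per animal. No difference below therefore has a replicate check, no test was run, and the depth of each library is unknown. The labels record no strain or sex.

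MC is the cartilage rod of the embryonic lower jaw, and its rear end forms the malleus, a middle ear bone. In mammals the rod breaks down between the jaw and the malleus, which frees the ear bones, while the malleus itself ossifies. Cartilage and bone matrix are removed by clasts, large cells of the myeloid line that secrete acid and the protease cathepsin K.

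FPKM was higher in q3 for nearly every gene. Of 9956 TSS groups with a value above 0 in both conditions and a mean FPKM of at least 1, called measured here, 91.9% were higher in q3, and their median log2 ratio of q3 to q2 was 1.43, which is 2.70-fold. Summed over its TSS groups, each of 7026 genes was measured in the same way, with a median of 1.42 on the log2 scale (2.68-fold) and 94.4% of genes higher in q3. The members had to pass a test of q3 against q1 but none for q2, so genes high only in q2 were left out. Of 352 TSS groups without an accepted test that had values above 0 and a mean FPKM of at least 1, 349 lay a factor of 2 or more under the median of the members and 0 above it. Differences below are therefore given as centred ratios, the log2 ratio minus this median, so that 0 stands for the typical gene. A gene is called past the fold when its centred ratio is at least 1 or at most -1, a factor of 2 from the median. By this rule 1480 TSS groups (14.9%) were past the fold on the higher side and 1431 (14.4%) on the lower side relative to the median, while without centring only 805 were lower in q3 at all. Among genes, 760 (10.8%) were past it on the higher side and 737 (10.5%) on the lower side. These shares of all genes are the background for each count of list genes past the fold below. In captured tissue of this kind, fewer cells of a type and less RNA per cell cannot be told apart.

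A TSS group of TBC1D22B (chromosome 2, 276877138 to 277274469) had the highest value of all members, with 178402 FPKM in q2 and 204341 in q3. Summed over all members, FPKM was 420197 in q2 and 744847 in q3. The part of this group in the higher FPKM of other genes in q3 was not tested.

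Genes of the eye lens were among those with the highest ratios of q3 to q2. Crystallins are the proteins that fill the fibre cells of the lens, and most of them are known for high expression nowhere else. Of 30 lens genes in a list written after these values had been seen, 16 were listed on the chromosomes covered and 13 were members. Of these members, 10 reached at least 10 FPKM in q3, beside 3081 of all 7776 member genes. Of the 10 lens genes, 8 were under 0.7 FPKM in q2, a share not counted for all genes. Because the list was written with these values known, its counts describe them and test nothing. Over the whole list the summed FPKM was 25.4 in q2 and 2248 in q3.

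In q3 the highest levels of the list were those of the beta crystallins CRYBA4, CRYBA1 and CRYBB1. CRYBA4 had 2.65 FPKM in q2 and 901 in q3, and CRYBB1, which lies in the same locus (chromosome 3, 499213467 to 499243767), had 0.684 and 308. The strand is not known to have been used in counting, so reads of these overlapping genes may not be separate. CRYBA1 (chromosome 2, 507302973 to 507349635) was listed at 0 in q2 in both of its TSS groups and had 341 and 305 FPKM in them in q3. CRYBB2 had 0.0763 and 69.8 FPKM, and its neighbour CRYBB3 was listed at 0 in q2 and had 17.0 in q3. These neighbours belong to the same gene family, and how far reads were shared between them was not tested. Every one of the 5 beta crystallins was thus near or under a few FPKM in q2 and well above it in q3.

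Other lens proteins followed the same order. CRYGS, a gamma crystallin, had 0.0884 FPKM in q2 and 59.0 in q3, and GRIFIN, a lens galectin relative, had 0.142 and 18.4. LGSN, a lens protein related to glutamine synthetase, had 9.08e-08 and 33.4. LIM2, a membrane protein of lens fibres, was listed at 0 in q2 and had 22.1 in q3, and GJA3, a lens gap junction protein, was listed at 0 and had 1.08. CRYAB, a small heat shock protein made in the lens and also in muscle and other tissues, had 16.6 and 160 FPKM, a centred ratio of 1.85. HSPB6, another small heat shock protein, had 0.103 and 18.5 FPKM.

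Not every lens gene stood apart. TDRD7, an RNA granule protein needed in the lens but made widely, had 3.49 FPKM in q2 and 9.65 in q3, a centred ratio of 0.05. PROX1, a regulator of lens fibres and of lymphatic vessels, had 0.881 and 1.29, below the median at -0.87 although its FPKM was higher in q3. PAX6, the regulator of eye formation, was no member and had 0.418 and 0.106 FPKM, and DNASE2B was listed at 0 in both conditions. Of 12 listed genes of the retina, retinal pigment and cornea, 1 was measured: ROM1, a photoreceptor membrane protein, had 2.82 and 10.02 FPKM (centred ratio 0.40). The summed FPKM of this list was 4.51 and 10.97.

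**Figure D1:**
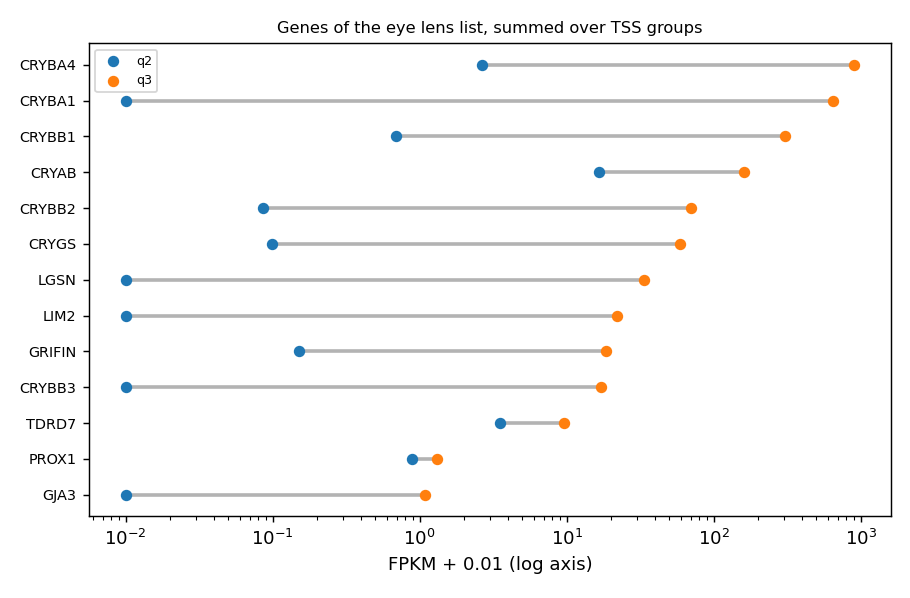
FPKM of the 13 member genes of the eye lens list in q2 (blue) and q3 (orange), summed over the TSS groups of each gene and drawn on a log axis after adding 0.01, so that a gene listed at 0 sits at the left edge. CRYBA4 reached 901 FPKM in q3 from 2.65 in q2, whereas TDRD7 had 3.49 and 9.65 and PROX1 0.881 and 1.29.

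Beside these genes, 8 genes known only by an Ensembl ID share with C2orf80, or adjoin, a stretch of chromosome 7 (186735407 to 186816805 and 186820865 to 186844731). In q2 the highest of the 8 had 3.17 FPKM. In q3, 7 of them had at least 903 and up to 5228 FPKM, and the remaining gene had 5.46. C2orf80 itself had 0.189 and 55.5. Among 3081 genes with at least 10 FPKM in q3, ranked by the ratio after adding 0.1 to each value, the first 30 held 9 genes of the lens list and 8 of these loci. They also held ENSMODG00000021030 on chromosome 4, which had 2.07 FPKM in q2 and 2308 in q3 and is not named in the sources used here. Among the others were small RNAs listed at 0 in q2, such as mdo-mir-215 with 46.5 FPKM in q3, SNORA38 with 44.0 and SCARNA3 with 24.5. In the opposite direction, SCARNA23 was the only member gene with at least 10 FPKM in q2 (17.8) that was under 0.01 in q3. Members needed an accepted test of q3 against q1 and none for q2. Genes high only in q2 were therefore left out of this count.

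Lens tissue is not part of the labelled sample. The part of lens RNA in the results that follow was not tested. Without the lens genes and these loci, 1466 TSS groups were past the fold on the higher side and 1429 on the lower side relative to the median. The median log2 ratio stayed at 1.43. So few genes could hardly move these values, and other RNA of lens cells, if present, was not removed by leaving them out.

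The spread of the ratios depended on the level of a gene. Genes were split by mean FPKM into 5 bins of equal size. In the lowest bin, up to 2.13 FPKM, the interquartile width of the centred ratios was 1.72, and 17.4% of genes were past the fold on the higher side and 27.5% on the lower. In the highest bin, from 17.7 upwards, it was 0.593, and these shares were 5.27% and 1.35%. A gene past the fold at 1 or 2 FPKM was thus common in either direction, and one above 17.7 FPKM was rare, above all on the lower side. Medians of the chromosomes lay between -0.09 (chromosome 7) and 0.04 (chromosome 6). TSS groups of the same gene often differed. Of 2331 genes with 2 or more measured groups, 1226 (52.6%) had groups at least 1 apart on the log2 scale, and 220 had a group past the fold each way.

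**Figure D2:**
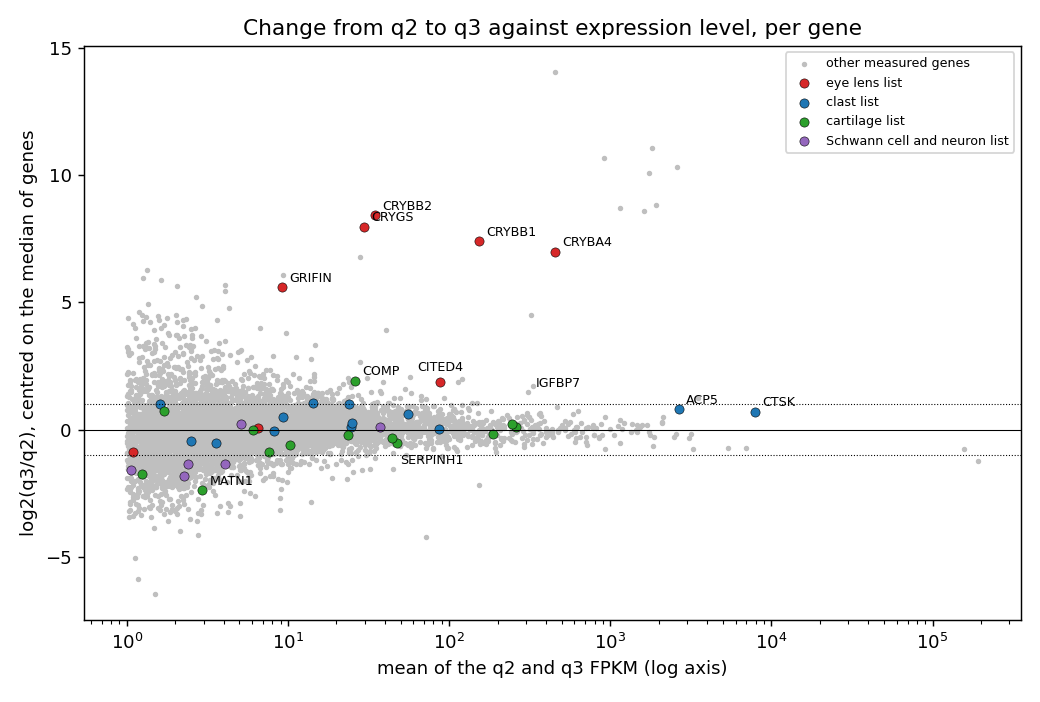
Centred log2 ratio of q3 to q2 (vertical axis) against the mean FPKM of both conditions (log axis) for measured genes with at least 0.01 FPKM in each, with 4 gene lists coloured and dotted lines at -1 and 1. The cloud narrows as the level rises, CRYBA4, CRYBB1, CRYBB2 and CRYGS lie at 6.99, 7.39, 8.41 and 7.96, and genes between 0 and -1.42 lie under the median although their FPKM was higher in q3.

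**Figure D3:**
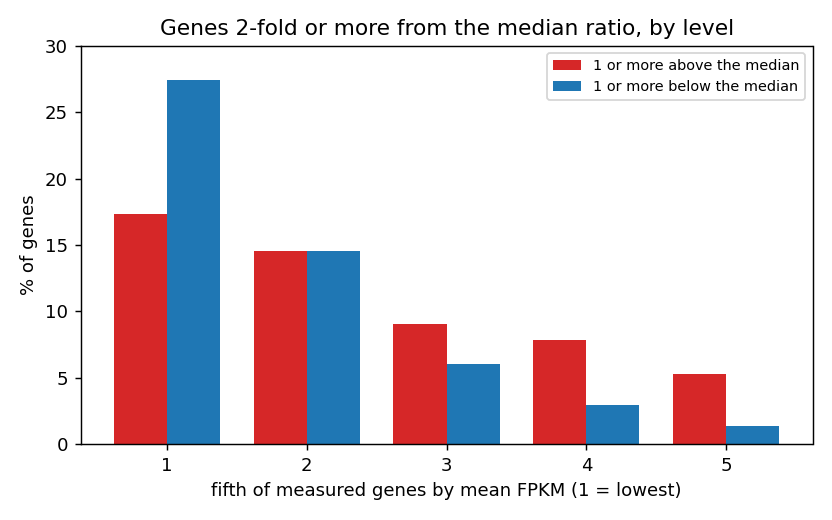
Percentage of measured genes with a centred log2 ratio of at least 1 (red) or at most -1 (blue) in each of 5 bins of genes by mean FPKM. The shares were 17.4% and 27.5% in the lowest bin and 5.27% and 1.35% in the highest, and the lower side is relative to the median, since most of these genes had more FPKM in q3.

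Among 1936 named genes with at least 5 FPKM in both conditions, 46 were past the fold on the higher side and 67 on the lower, of which 23 had less FPKM in q3 before centring. CITED4, a partner of the coactivators CBP and p300, stood highest, with 9.23 FPKM in q2 and 104.5 in q3 (11.3-fold, centred ratio 2.08). Both of its TSS groups were past the fold. IGFBP7, a secreted protein of vessels and stroma, had 73.6 and 547 FPKM (1.47), and its 3 TSS groups lay between 1.18 and 1.53. COL10A1, the collagen of hypertrophic cartilage, had 6.25 and 41.0 FPKM (1.29).

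Others at this end had roles apart from the skeleton. NHLRC3 had 7.15 and 70.2 FPKM (1.87), TUBB6, a tubulin, was 8.12-fold higher (1.60), and PIK3R1, the regulatory subunit of PI3-kinase, had 8.58 and 66.4 (1.53). ACP2, a lysosomal acid phosphatase, had 7.73 and 57.7 (1.48), and ESAM, an adhesion molecule of endothelial cells, had 9.26 and 66.4 (1.42). ADIPOR1, an adiponectin receptor, had 17.6 and 117 (1.31). Also among the 15 highest were SNORA8, SLC25A11, PCGF2, NFKBIB, CRYAB and the 5S_rRNA copies, which were summed over 17 TSS groups on several chromosomes. Of the 11 genes of this end with 2 or more measured TSS groups, 6 had every group past the fold. In PIK3R1 the groups ranged from -0.40 to 2.39.

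At the other end every one of the 15 genes had less FPKM in q3 before centring as well. DENND1B, an exchange factor for RAB35, had 11.8 FPKM in q2 and 6.25 in q3 (centred ratio -2.34), with both TSS groups past the fold. CHI3L1, a secreted glycoprotein of chondrocytes and macrophages, had 10.2 and 7.22 (-1.92). OPCML, a neural adhesion molecule, had 8.39 and 6.05 (-1.89), and HTRA3, a secreted serine protease, had 6.26 and 5.32 (-1.66). CASP8, which starts apoptosis from death receptors, had 6.04 and 5.09 (-1.67). The U1 copies, PSORS1C2, VN2R560, CHCHD7, NUBP1, NTPCR, INPP4A, SYF2 and LSM10 lay between -2.70 and -1.63. Of the 9 genes of this end with 2 or more measured TSS groups, 4 had every group past the fold.

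Clast genes were above the median on balance. Of 13 measured genes in a list of clast differentiation and resorption, 10 lay above the median, 2 were past the fold on the higher side and 0 on the lower, with a median centred ratio of 0.50 beside 0 for all genes and 10.8% of genes past the fold higher. A further member of the list, SLC9B2, had 0.578 FPKM in q2 and 0.312 in q3 and was not measured. CTSK, cathepsin K, had 2935 FPKM in q2 and 12823 in q3 (0.70), and its 3 TSS groups ranged from -0.20 to 0.79. ACP5, the acid phosphatase that marks clasts, had 942 and 4403 FPKM (0.80). DCSTAMP, needed for the fusion of clast precursors, had 4.42 and 24.1 (1.03), and SIGLEC15, a receptor needed for clast maturation, had 7.48 and 40.4 (1.01), both just past the limit. PLEKHM1, a protein of clast vesicles, had 0.511 and 2.73 and lay just under it at 0.99. PLEKHM1 reached the minimum mean FPKM of 1 only through q3. OSCAR, a receptor that costimulates clasts, had 46.3 and 126 (0.02). The receptor for the clast signal RANKL, TNFRSF11A, had 2.52 and 4.69 FPKM, which put it below the median at -0.53 although its FPKM was higher in q3. Its ligand TNFSF11, made by osteoblasts and osteocytes, had 2.42 and 16.3 (1.33).

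Genes of acid and lysosomal breakdown also lay above the median on balance. The 6 measured subunits of the V-ATPase, the proton pump, had a median of 0.42, and ATP6V1H was past the fold with 5.26 and 32.1 FPKM (1.19). Of 10 lysosomal genes (median 0.27), 2 were past it on the higher side, beside 10.8% of all genes. The 2 included GUSB, which degrades sugar chains, with 42.9 and 236 FPKM (1.04). Among 10 macrophage and myeloid genes the median was 0.45, with 2 past the fold on each side. Of all measured genes 10.8% were past it higher and 10.5% lower. CD68, of the same list, had 0.932 FPKM in q2 and 0.14 in q3 and was no member. C1QC, a complement chain of macrophages, had 4.76 and 29.7 FPKM (1.22), and PTPRC, the pan-leukocyte CD45, had 1.38 and 8.39 (1.18). MARCO, a scavenger receptor, had 2.63 and 1.07 (-2.72), and the protease CTSS had 1.81 and 1.88 (-1.38, with hardly any difference before centring). TYROBP, the adaptor of myeloid receptors and the highest of them, had 26.9 and 69.4 (-0.06).

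Bone genes lay near the median. Of 16 measured genes of osteoblasts and bone matrix, 6 were above it, and their median was -0.12. TNFSF11 was past the fold on the higher side, and CREB3L1, a regulator of collagen secretion, on the lower side relative to the median, with 3.76 and 4.795 FPKM (-1.07). BGLAP, osteocalcin, had 2531 and 3980 FPKM, so its log2 ratio of 0.65 was smaller than that of the typical gene (-0.77). SPP1, osteopontin, had 1501 and 3610 (-0.16), COL1A1, the main collagen of bone, 1558 and 3422 (-0.29), and IBSP, bone sialoprotein, 519 and 1793 (0.37). ALPL, the phosphatase that permits mineralization, had 67.4 and 296 (0.71), and SOST, the Wnt inhibitor made by osteocytes, had 23.8 and 36.3 (-0.82).

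Cartilage genes, which should define the captured tissue, were present in both conditions, the highest of them at lower FPKM than the highest bone and clast genes above. COL2A1 and ACAN were not analysed here. Of 13 measured genes, 5 were above the median, 1 was past the fold on the higher side and 2 on the lower, and their median was -0.21. COL11A2 had 134 and 383 FPKM (0.09), COL9A2 had 120 and 373 (0.21), and COL11A1 had 110 and 264 (-0.16). These are the minor collagens of cartilage fibrils. SOX9, the regulator of chondrocyte identity, had 3.31 and 8.89 (0.00). COMP, which binds cartilage collagens and is also made in tendon, had 4.70 and 47.6 (1.92). That difference rested on 1 of its TSS groups, with 3.58 and 44.3 FPKM, while another had 1.12 and 1.47 and lay at -1.04. MATN1, a matrilin of cartilage, had 3.89 and 1.995 (-2.38), and MATN2 had 1.38 and 1.09 (-1.76), so that both were lower in q3 before centring as well. By mean FPKM, MATN2 fell in the lowest bin of genes and MATN1 in the next. In these bins 27.5% and 14.6% of genes were past the fold on the lower side. Both ratios lay under the lower quartile of their bin, which was -1.11 for MATN2 and -0.61 for MATN1.

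**Figure D4:**
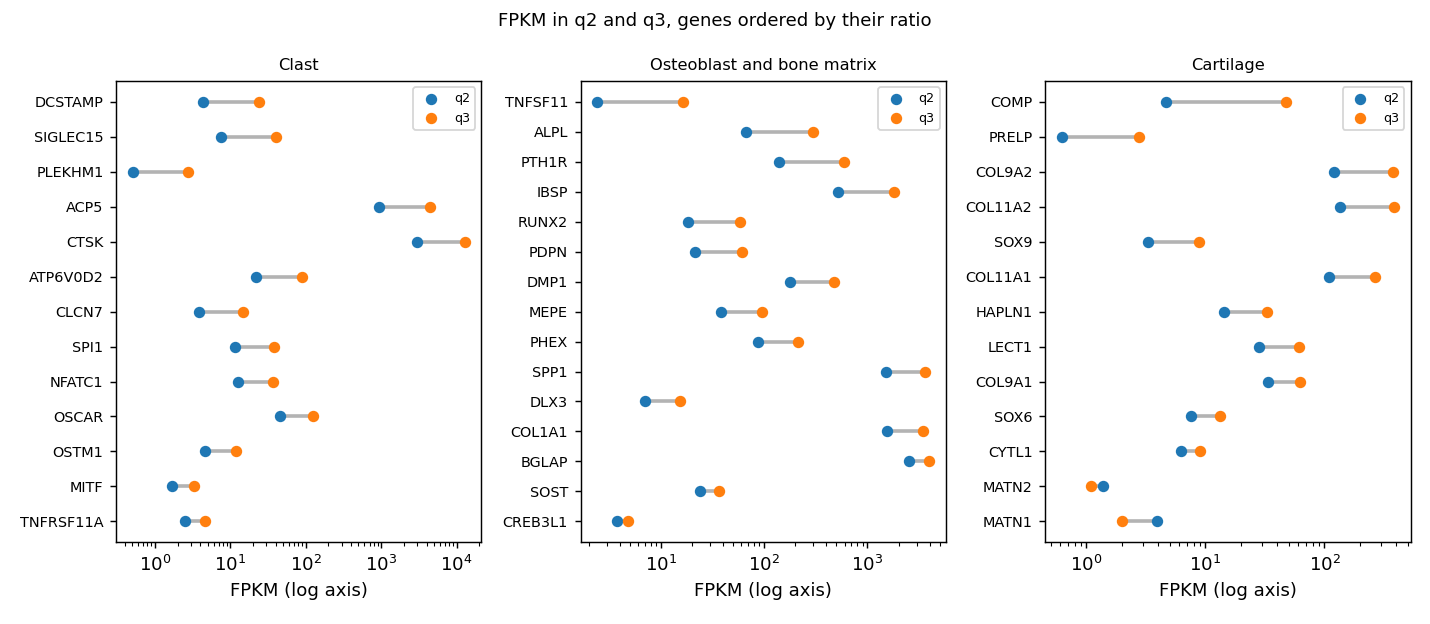
FPKM in q2 (blue) and q3 (orange) on log axes for the measured genes of the clast, bone and cartilage lists, with 1 bone gene not drawn, ordered by their ratio. Every clast and bone gene drawn lay further right in q3, CTSK reaching 12823, and MATN1 and MATN2 alone lay further left.

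In hypertrophic cartilage and mineralization, 11 measured genes had a median of -0.08, and COL10A1 alone was past the fold. MMP13, the collagenase of hypertrophic cartilage, had 91.8 and 217 FPKM (-0.18), and ANKH, a pyrophosphate exporter that limits mineral, had 13.9 and 66.7 (0.83). The 13 interstitial collagens and fibrous matrix genes had a median of -0.29 and 0 past the fold, and POSTN, periostin, stood lowest with 89.3 and 135 (-0.83). Among 11 genes of collagen folding and crosslinking (median -0.13), only SERPINH1, the collagen chaperone HSP47, was past the fold. It had 46.8 and 42.7 FPKM (-1.56), and its TSS groups lay at -1.78 and -1.47. At this level 1.35% of genes were past the fold on the lower side. The matrix proteases and their inhibitors had a median of -0.10 over 13 genes, with ADAM15 on the higher side (2.94 and 24.5 FPKM, 1.64) and ADAMTS9 on the lower side relative to the median (6.25 and 8.07, -1.05). The 2 small leucine-rich proteoglycans measured, TSKU and PRELP, lay at 0.84 and 0.73. PRELP, with 0.621 FPKM in q2 and 2.77 in q3, reached the minimum level only through q3.

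The TGF-beta pathway signals through a pair of receptor types to SMAD proteins and acts on matrix, growth and cell death. Of its 14 measured genes 11 lay above the median, which was 0.20 for the list, and 1 was past the fold. The ligands TGFB2 and TGFB1 had 44.4 and 156 FPKM (0.39) and 21.1 and 62.8 (0.15). The receptor TGFBR1 had 3.17 and 9.17 (0.11), and TGFBR2 was not analysed here. SMAD2, which carries the signal to the nucleus, had 3.02 and 6.22 and lay below the median (-0.38) with higher FPKM in q3, and SMAD7, an inhibitor, had 1.16 and 3.22 (0.05). ZFYVE9, the anchor that brings SMAD2 to the receptor, had 1.67 and 9.59 (1.10).

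Among 14 BMP pathway genes the median was 0.02. The antagonist CHRD, chordin, had 0.538 and 5.88 FPKM (2.03), SMAD9 had 2.59 and 1.04 (-2.74), and the receptor ACVR2B had 2.09e-05 and 3.26, a value in q2 too low for a ratio to be read. CHRD and ACVR2B reached the minimum level only through q3. For 20 genes of the Wnt pathway and CCN family the median was 0.01, with 2 past the fold on each side. The shares of all measured genes were 10.8% higher and 10.5% lower. WISP1, a CCN family protein, had 38.9 and 70.6 FPKM, a log2 ratio of 0.86 that was smaller than the median (-0.56). Its relatives CTGF and CYR61 had 22.5 and 113 (0.91) and 11.1 and 57.3 (0.95). DKK3 had 12.7 and 70.5 (1.05), WNT11 0.508 and 2.92 (1.10), the Wnt inhibitor SFRP4 11.9 and 13.2 (-1.27), and WNT5A 1.77 and 1.39 (-1.77). WNT11 reached the minimum level only through q3. The 9 FGF, hedgehog and PTH genes had a median of -0.19. Of these the hedgehog inhibitor HHIP had 2.40 and 2.77 (-1.21), and PTH1R, the receptor for parathyroid hormone, had 139 and 591 (0.66). Of 14 genes that pattern the jaw joint and first arch (median -0.10), BARX1 with 15.7 and 17.8 FPKM (-1.24) and BARX2 with 1.59 and 1.34 (-1.67) were past the fold on the lower side, and only BARX2 was lower before centring. NKX3-2, which specifies the jaw joint, had 2.54 and 4.16 (-0.71).

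Genes that promote apoptosis had one of the lowest medians. Of 12 listed genes on the chromosomes covered only 8 were measured. Of these 8, 1 exceeded the all-gene median, and the list median was -0.61 (0.81 before centring). CASP8 and DFFA, the inhibitor of the apoptotic nuclease, which had 1.59 and 1.70 FPKM (-1.33), were past the fold on the lower side relative to the median. Of all measured genes 10.5% were past it on that side. By mean FPKM, DFFA fell in the lowest bin of genes and CASP8 in the middle bin. In these bins 27.5% and 6.05% of genes were past the fold on the lower side. BAX, which opens the mitochondrial membrane, had 17.3 and 25.99 (-0.84), and CASP9 had 3.23 and 5.06 (-0.78). Since DFFA blocks the nuclease, it does not do what the list is named for, and without it the list median was -0.45. BOK, a relative of BAX, had 0.946 and 10.4 (2.03), and it reached the minimum level only through q3. The 8 genes that block apoptosis had a median of -0.13, and all lay between -0.53 and 0.17. Of 12 targets of p53 (median 0.40), SESN1 with 1.72 and 17.6 FPKM (1.94) and SESN2 with 0.383 and 2.08 (1.02), both stress-response proteins, were past the fold on the higher side and XPC, a DNA repair protein, on the lower side relative to the median, with 2.69 and 3.38 (-1.09). SESN2 reached the minimum level only through q3. Of all measured genes 10.8% were past the fold on the higher side and 10.5% on the lower. CDKN1A, p21, had 8.42 and 27.4 (0.28).

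The 19 autophagy genes had a median of 0.06 with 5 past the fold on the higher side, beside 10.8% of all measured genes. The 5 were the kinase ULK1 with 0.857 and 6.27 FPKM, BECN1 with 1.05 and 6.28, ATG10 with 1.28 and 10.99, ATG4C with 5.79 and 31.3 and ATG4B with 0.177 and 3.04. Of these, ULK1 and ATG4B reached the minimum level only through q3. ATG4D had 4.38 and 3.05 (-1.95). Cell division and DNA replication had a median of 0.08 over 15 genes. The mitotic activator CDC20 had 8.43 and 39.8 FPKM (0.81), PLK1 1.40 and 8.63 (1.20), CCND3 1.01 and 6.85 (1.34), and MCM2, part of the replication helicase, 2.66 and 2.91 (-1.29).

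Large complexes stayed close together. The 39 respiratory chain subunits had a median of 0.07 and 0 past the fold, and the 37 cytosolic ribosomal proteins had a median of -0.23 with 5 above the all-gene median and 0 past the fold. RPS28 had 1879 and 4474 FPKM (-0.17). The 46 mitochondrial ribosomal proteins had a median of 0.14 and 2 past the fold, MRPS18A (1.45) and MRPL44 (1.07). Medians were 0.08 for 17 proteasome subunits, 0.14 for 21 translation factors, -0.10 for 25 splicing factors, 0.06 for 21 genes of vesicle coats and RAB GTPases, 0.15 for 10 ER chaperones, 0.10 for 8 glycolysis genes, 0.17 for 12 interferon response genes and 0.00 for 12 immediate early genes. For 20 actin remodelling genes the median was 0.12, and CORO1A, a coronin of leukocytes, had 1.96 and 21.4 FPKM (2.03). The 16 integrins and laminins had a median of 0.24, with ILK at 26.6 and 134 FPKM (0.91) and ITGA4 at 1.58 and 1.68 (-1.34).

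Markers of other cell types differed in both directions. Of 11 endothelial genes 8 lay above the median, and their median was 0.65. Past the fold were 3 higher and 0 lower, beside 10.8% and 10.5% of all genes. The 3 were ESAM and the receptors TIE1 with 1.63 and 10.3 FPKM (1.24) and TEK with 1.59 and 9.68 (1.18). By mean FPKM, TIE1 and TEK fell in the middle bin of genes and ESAM in the highest. In these bins 9.04% and 5.27% of genes were past the fold on the higher side. PECAM1, the adhesion molecule CD31, had 6.30 and 21.1 (0.32) and KDR, a VEGF receptor, had 3.91 and 8.47 (-0.31). The summed FPKM of the list was 38.4 and 159. Of 15 listed genes of Schwann cells and neurons only 6 were measured. Of these, 4 were past the fold on the lower side relative to the median, beside 10.5% of all genes. The list median was -1.35, but 0.07 without centring. By mean FPKM, GRIA2 fell in the lowest bin of genes and GAP43, NCAM1 and STMN2 in the next. In these bins 27.5% and 14.6% of genes were past the fold on the lower side. GAP43, a protein of growing axons, had 2.60 and 1.97 FPKM (-1.82), GRIA2, a glutamate receptor, 1.13 and 1.002 (-1.59), NCAM1 3.97 and 4.14 (-1.36) and STMN2 2.34 and 2.47 (-1.35). The myelin genes MBP and PMP22 had 2.48 and 7.80 (0.23) and 19.3 and 55.0 (0.09), and ELAVL3 was listed at 0 in both conditions.

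Blood and muscle genes were mixed. Of 17 listed lymphocyte genes 12 were under 1 FPKM in both conditions, among them the T cell receptor chains CD3D with 0.194 and 0.0698 FPKM and CD3E with 0.419 and 0.754, and the B cell gene MS4A1 with 0.319 and 0.21. The 5 measured genes had a median of 0.96, but they are no measure of the whole list. They included IL21R at 1.23 and 11.7 FPKM (1.82), CD247 at 0.286 and 3.49 (2.18), which reached the minimum level only through q3, and IKZF1 at 2.64 and 1.59 (-2.15). Of 8 neutrophil genes (median 0.25), MPO, myeloperoxidase, had 66.9 and 172 (-0.06) and CSF3R, the receptor for the neutrophil growth factor, 0.22 and 2.67 (2.18). The 6 erythroid genes had a median of -0.01, and KLF1, their regulator, had 0.162 and 4.11 (3.24). Like CD247, both CSF3R and KLF1 reached the minimum level only through q3. For 11 skeletal muscle genes the median was -0.01, with MYL1 at 10.1 and 24.4 (-0.16), and the summed FPKM was 34.3 and 81.1. Of the skin and oral epithelium only JUP (0.47) and DSP (-0.61) were measured. Over all 39 lists, 31 had a median within 0.3 of that of all genes. The part of these cell types in the other lists was not tested.

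**Figure D5:**
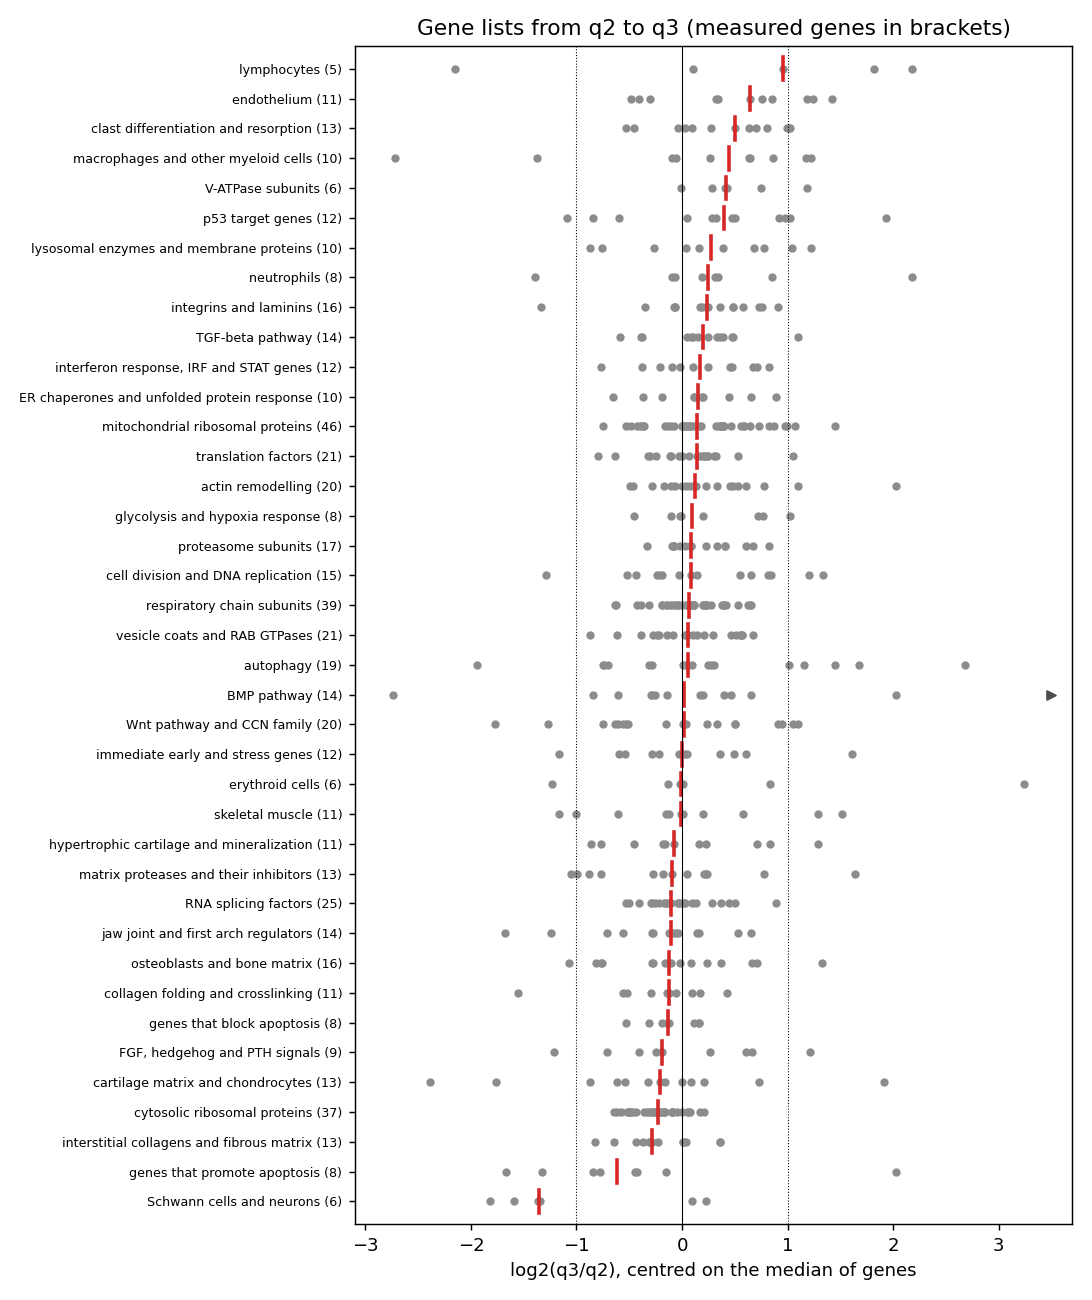
Centred log2 ratio of each measured gene (grey points) and the list median (red bar) for 39 gene lists, ordered by their median, with dotted lines at -1 and 1 and ACVR2B drawn at the right edge as an arrow. Medians ran from -1.35 (Schwann cells and neurons, 6 of 15 listed genes, 0.07 before centring) to 0.96 (lymphocytes, 5 of 17 listed genes). Of the medians, 31 lay within 0.3 of 0.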

How the data were processed

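RNA of the laser-captured tissue was sequenced from 3 pups per stage. According to the submitters' processing notes, TopHat, Cufflinks and Cuffdiff were run. No version, build or annotation is given in the sources used. The authors deposited Cuffdiff's tests per TSS group with condition means in FPKM, so replicate spread and depth per sample are unknown. Coordinates are as deposited. The table's p-values, q-values and fold changes are the authors' comparisons and were not used, nor was a shorter table of called tests. The values had no column per sample, so columns of unmapped samples numbered 0, and the condition means were mapped to no stage.

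The FPKM of q2 and q3 were joined by TSS group. Members needed an accepted test of q3 against q1, but not of q2 against q1, which 2636 members (23.1%) lacked. Of groups without the former, 352 had a mean FPKM of at least 1 and both values above 0, and 349 of these lay past the fold on the lower side against the median of members and 0 on the higher, so the members favour values that are high in q3. FPKM were summed over the member TSS groups of a gene. Log2 ratios, with no pseudocount, were centred on their median among values above 0 in both conditions with a mean FPKM of at least 1. The limit was 1 on the centred log2 scale. A gene under 1 FPKM in q2 could reach the minimum mean only through q3. Python 3.11.15, numpy 2.4.6, pandas 2.3.3 and matplotlib 3.10.9 were used, and the scripts were tested on simulated data.

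Named genes were the 15 highest and 15 lowest with a symbol and at least 5 FPKM in both conditions, for each list the 3 with the highest mean FPKM and both extremes, and WISP1, ACP5 and CTSK. Other genes were named after their values were seen. Members and the 41 lists were chosen with earlier results of these data known, and the lens and retina lists were added after seeing the values. Of the 7776 genes 1729 carried only an Ensembl ID and 11 a date in place of a symbol, and these are unnamed. Some items that these rules select are not reported here. Alternatives covered centring, low-value filters, pseudocounts, status, the fold limit and the unit summed.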

Additional observations from a re-analysis of the deposited data

How the results depend on the processing

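No paired analysis was possible because the deposited values are 1 mean per condition, and leaving out a replicate was not possible for the same reason. The 1480 TSS groups past the fold on the higher side became 892 centred on the mean, 535 at a limit of 2, 182 at a mean FPKM of at least 10, 6973 without centring, 735 with a pseudocount of 1 and 790 with an accepted test in both rows. The 1431 on the lower side became 2453, 377, 92 and 198 under the first 4 of these. The median log2 ratio of 1.43 became 1.56 at a mean FPKM of at least 10, 1.13 with a pseudocount of 1 and 1.31 with an accepted test in both rows. Groups listed at 0 in 1 condition numbered 119, 1876 whatever the test status and 44 with an accepted test in both rows. The 5S_rRNA ratio of 1.86 turned to -0.063 with any status, -1.08 with both accepted and -0.10 summed over all listed groups, and the Schwann cell and neuron median of -1.35 to 0.068 without centring. The causes were not tested. With 1 value per condition, no difference can be set against the spread between animals. Any status, FPKM of at least 0.01 and the omission of lens genes or of DFFA were added after seeing the data.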

Other observations

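Lens genes on chromosomes outside those compared lay in the same direction. BFSP1, a filament protein of lens fibres on chromosome 1, had 0.0118 FPKM in q2 and 115 in q3, and CRYGN, a gamma crystallin on chromosome 8, had 1.63 and 75.9. The lens regulators MAF and HSF4 had 0.513 and 3.27 FPKM and 0.0162 and 0.42. These values belong to no comparison above.

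KANSL1, a chromatin protein, had 966 FPKM in q2 and 6039 in q3, a centred ratio of 1.22, and all but a few FPKM of it lay in 1 of its TSS groups, with 963 and 6033. Of the members, 109 TSS groups were listed at 0 in q2 only and 10 in q3 only. Members needed an accepted test of q3 against q1 and none for q2. That rule favours groups with a value in q3, so the imbalance is no result about the conditions.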
